A study of Drosophila melanogaster with 2 samples.

Results

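The X chromosome of Drosophila melanogaster held 2165 of the 19279 regions listed for the nuclear receptor Hr38 in whole white prepupae, and 142 of the 768 peaks that passed the authors' reproducibility threshold. The members were all rows on chromosome X in the deposited list of both replicates pooled, on the dm6 genome build, and no measured value was used to choose them. They are compared with the 17114 regions on the autosomes, 626 of them thresholded.

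The study was chromatin immunoprecipitation with sequencing (ChIP-seq), in which DNA bound by a protein is recovered with an antibody and mapped to the genome. It used 1 group with 2 biological replicates. The animals were whole white prepupae, males and females pooled, from a transgenic line in which GFP is fused to the C terminus of Hr38, and the antibody was against GFP. An age of 48 h is given with no starting point, and DNA was broken by sonication. They do not say which promoter drives the fusion or whether native Hr38 was also present, and the named control experiment was not analysed here. In whole animals, a site bound strongly in a few cells and a site bound weakly in many cannot be told apart. All cells of all tissues contribute, so no tissue can be assigned to a region.

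Hr38 is the fly counterpart of the mammalian Nr4a receptors, which bind DNA without a known ligand and recognise a short element called the NBRE. White prepupae are animals that have just begun metamorphosis under a pulse of ecdysone, when a cascade of nuclear receptors is active. Males carry a single X and females a pair. In males the MSL complex, guided by the noncoding RNAs roX1 and roX2, raises transcription along the whole X. With both sexes pooled, X sequence is present in fewer copies per cell than autosomal sequence, so the effect of X copy number on how many X regions were listed, and on their scores, cannot be told apart from a difference in binding.

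The sequences below are from the RefSeq release 6 assembly (dm6), read 5′ to 3′ on the plus strand, 60 bases to either side of the summit that the authors gave. They were picked from thresholded X peaks outside annotated exons, to show the letter strings that the results return to. Capitals mark the strings searched for, on either strand. The first 4 hold ACAGTGG, written CCACTGT on the other strand. The window at CG3726 holds a run of GAGAGAGA, the sequence that GAGA factor binds. That run lies within the window but outside the listed bounds of the peak. The peak in Zw holds TGANTCA, the element of AP-1 factors. The printed window at ph-p holds none of the strings and is shown as an example of a high peak without any.
Ptp4E, promoter, chrX:4939941-4940061: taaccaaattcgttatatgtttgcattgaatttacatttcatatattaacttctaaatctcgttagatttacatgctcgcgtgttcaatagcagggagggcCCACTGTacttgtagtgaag
CG1737, intron, chrX:11351461-11351581: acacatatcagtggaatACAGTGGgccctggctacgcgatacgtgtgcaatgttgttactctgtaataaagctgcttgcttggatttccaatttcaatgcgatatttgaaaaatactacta
CG8034, intron, chrX:19289428-19289548: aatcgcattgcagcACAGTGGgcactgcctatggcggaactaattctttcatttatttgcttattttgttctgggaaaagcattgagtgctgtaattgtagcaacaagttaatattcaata
CHES-1-like, intron, chrX:7700367-7700487: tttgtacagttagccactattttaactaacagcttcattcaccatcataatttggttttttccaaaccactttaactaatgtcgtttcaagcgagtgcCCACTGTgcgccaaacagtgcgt
CG3726, intron, chrX:5918797-5918917: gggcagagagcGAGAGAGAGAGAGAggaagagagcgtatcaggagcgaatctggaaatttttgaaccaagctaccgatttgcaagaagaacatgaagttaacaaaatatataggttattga
Zw, intron, chrX:19668524-19668644: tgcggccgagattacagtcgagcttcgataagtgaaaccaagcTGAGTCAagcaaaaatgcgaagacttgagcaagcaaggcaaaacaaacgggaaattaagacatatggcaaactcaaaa
ph-p, promoter, chrX:2137292-2137412: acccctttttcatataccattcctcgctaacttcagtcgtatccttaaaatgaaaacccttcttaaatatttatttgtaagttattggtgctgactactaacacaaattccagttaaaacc

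Few regions were listed on X, but those that were passed the threshold more often than autosomal ones. Over all arms 3.98% of listed regions were thresholded. On X it was 142 of 2165, or 6.56% (95% Wilson interval 5.59 to 7.68%), against 3.66% on the autosomes (3.39 to 3.95%), where the 4 major arms ranged from 3.41 to 3.96%. X held 11.2% of the listed regions (10.8 to 11.7%) but makes up 17.6% of the sequence of the arms without Y and carries 15.7% of protein-coding genes. That is 92.0 listed regions per Mb on X, against 155 per Mb on the autosomes. Thresholded peaks stood at 6.03 per Mb on X and 5.67 per Mb on the autosomes. Intervals here cover counting error only and treat regions as independent, which neighbouring regions need not be.

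The replicate lists showed both features, each on its own. Replicate 1 had 3493 X regions (11.6% of its list) and replicate 2 had 3799 (13.1%), both below the X share of the sequence. When the 768 highest regions were taken from each replicate in place of the thresholded list, 126 lay on X in replicate 1 and 137 in replicate 2. These were 3.61% of the X regions in each replicate, against 2.42% of autosomal regions in replicate 1 and 2.50% in replicate 2. The X share exceeded the autosomal one in both replicates, by less than in the thresholded list.

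The share of regions on X changed with rank and was lowest in bands between ranks 1537 and 6144, in the upper part of each list. In the pooled list X held 18.5% of ranks 1 to 768, 13.9% of ranks 769 to 1536, 10.5% of ranks 1537 to 3072 and 9.02% of ranks 3073 to 6144. It was 10.6% for ranks 6145 to 12288 and 11.8% for the remaining 6991 regions. Replicate 1 ran from 16.4% in its first band through 8.66% at ranks 1537 to 3072 to 12.8% in its last band. Replicate 2 had 17.8%, then a lowest share of 10.7% at ranks 3073 to 6144, and 14.1% at the end.

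**Figure D1:**
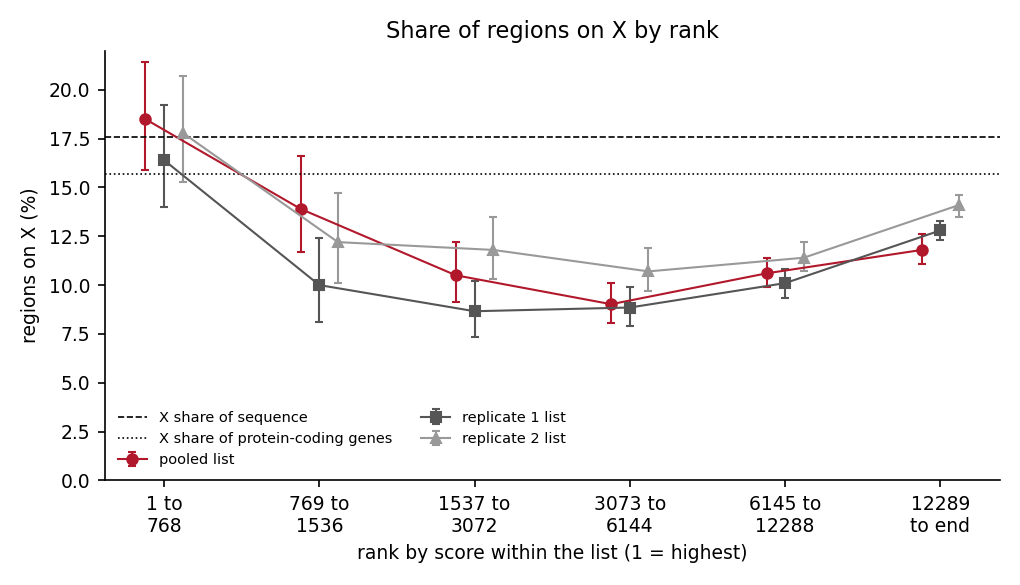
Share of regions on X (%, vertical axis) in bands of rank by score (horizontal axis), for the pooled list and each replicate list, with 95% Wilson intervals. The dashed line is the X share of the sequence (17.6%) and the dotted line its share of protein-coding genes (15.7%). In the first band replicate 1 (16.4%) already lies below the dashed line. After that band all 3 lists lie below both lines.

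Median scores of the listed regions differed little between X and the autosomes. The score is the authors' signal value, on a scale that the sources used here do not state. The median was 34.5 on X and 34.9 on the autosomes in the pooled list, and 106 on both among thresholded peaks. Replicate 1 had medians of 19.7 on X and 20.5 on the autosomes, and replicate 2 had 15.9 on X and 16.5 on the autosomes, so X was slightly lower in both. Each list had the same lowest score on X and the autosomes: 28.2 pooled, 15.9 in replicate 1 and 12.5 in replicate 2. The medians of whole lists lay near these floors, so similar medians do not show similar binding strength. The 90th percentile of the pooled scores was 62.3 on X and 52.9 on the autosomes, but single replicates did not show this gap: it was 29.8 on X and 30.4 on the autosomes in replicate 1, and 26.5 on X and 26.2 on the autosomes in replicate 2. Among thresholded peaks it was 185 on X and 206 on the autosomes. The highest X score was 443, against 629 for the autosomes. Of the 142 thresholded X peaks, 75 carried the highest −log10 q value in the list, 2.91, as did 329 of the 626 autosomal ones.

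The highest X peak lay 16 bp from a start site of Ugalt, which encodes a UDP-galactose transporter. It scored 262 in replicate 1 and 181 in replicate 2 (ranks 2 and 10), and 443 in the pooled list, where it ranked 4 over all arms. MFS10, a transporter of the major facilitator family, followed with scores of 174 in replicate 1 and 120 in replicate 2. Ptp4E, a receptor tyrosine phosphatase, had 136 in replicate 1 and 132 in replicate 2. All of the 20 highest X peaks ranked 195 or better in replicate 1 and 189 or better in replicate 2, so none of them rested on a single library. In location 11 of the 20 were intronic, 8 were at promoters and 1 was in a noncoding exon.

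The promoter peaks among those 20 included ph-p, a Polycomb group gene whose protein is a subunit of Polycomb repressive complex 1 (pooled score 248, 110 in replicate 1 and 131 in replicate 2). Hexo2, a hexosaminidase, had a pooled score of 236. The cAMP phosphodiesterase gene dnc had 185, Hmt4-20, which encodes the histone H4 lysine 20 methyltransferase, had 171, and moody, a receptor of the blood-brain barrier glia, had 170. The intronic peaks lay in CG32772 (257), in norpA, the phospholipase C of phototransduction (222), in NFAT, a transcription factor (211), in Raf, a kinase of the Ras pathway (209), and in CG1737 (208). Further ones lay in CG3726 (194), in pico, an adaptor protein of the cytoskeleton (186), in the kinase gene Tlk (184), in Hr4 (169) and in Zw, the glucose-6-phosphate dehydrogenase gene (168). The peak assigned to Act5C, a cytoplasmic actin, lay 4697 bp from its nearest start site, in an intron of a noncoding RNA gene (249). The peak assigned to CG4004 lay in an exon of the noncoding RNA Vinr, 5128 bp from the CG4004 start site (254).

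At the threshold the scores formed a continuum. The lowest thresholded X peaks were at Atg8a, an autophagosome protein (78.4), and at Moe, which encodes moesin (78.2). The highest X regions that were not thresholded were in Fim, an actin-bundling fimbrin (77.9), and at CG2200 (76.6). The peak at Moe scored 62.6 in replicate 1 and 17.8 in replicate 2, ranking 318 in the first and 11426 in the second. The region in Fim scored 31.0 in replicate 1 and 48.7 in replicate 2.

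Intronic sites made up more of the X regions than of the autosomal ones. Summits within 500 bp of the transcription start site (TSS) of a protein-coding gene counted as promoter, and the others were classed as exonic (coding, untranslated or other), intronic or intergenic. Of the 142 thresholded X peaks, 62 were intronic (43.7%, 35.8 to 51.9%), against 34.0% on the autosomes (30.4 to 37.8%, 29.9 to 37.0% over the 4 major arms), and these intervals overlapped. The highest 768 regions of each replicate gave 44.4% on X and 31.5% on the autosomes in replicate 1, and 45.3% on X and 34.1% on the autosomes in replicate 2. Among listed regions that were not thresholded, 42.2% were intronic on X and 33.6% on the autosomes (32.1 to 35.7% over the major arms). Introns also take up more of X, 43.7% of its sequence under the same classes, against 39.1% of autosomal sequence, so the share of thresholded X peaks in introns equalled the share of X sequence in introns.

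Intergenic sites held a lower share on X, but among thresholded peaks the intervals overlapped. They held 9 thresholded X peaks (6.34%, 3.37 to 11.6%), against 11.7% on the autosomes (9.38 to 14.4%, 9.09 to 14.9% over the major arms). The highest regions gave 6.35% on X and 12.5% on the autosomes in replicate 1, and 8.03% on X (4.54 to 13.8%) and 10.9% on the autosomes in replicate 2. Among the other listed regions the shares were 12.9% on X and 22.8% on the autosomes, and 19.2% was the lowest on a major arm. Intergenic sequence makes up 23.0% of X and 28.9% of the autosomes. No thresholded X peak had its summit in a coding exon, which allows a share of up to 2.11%, whereas 354 of the 2023 other X regions did (17.5%). On the autosomes 2 of 626 thresholded peaks were in coding exons.

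**Figure D2:**
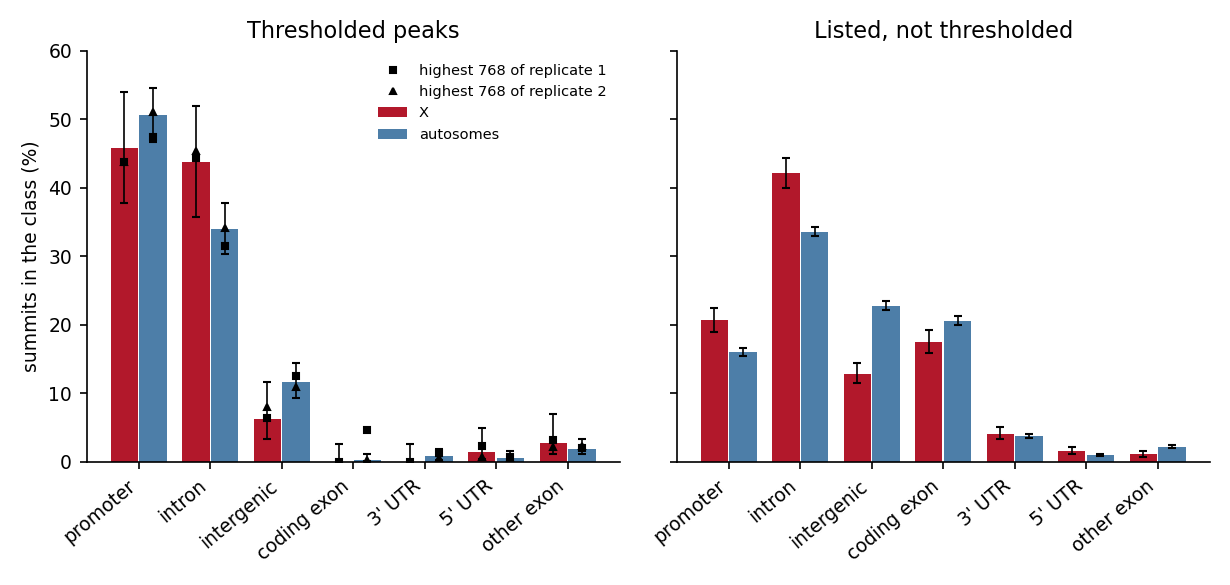
Share of summits (%, vertical axis) in each location class, for X and the autosomes, with 95% Wilson intervals; the left panel shows thresholded peaks, with the highest 768 regions of each replicate as black marks, and the right panel the other listed regions. The X bar is the taller one for introns and the shorter one for intergenic sites in both panels.

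Promoters within 500 bp took 65 thresholded X peaks (45.8%, 37.8 to 54.0%), against 50.6% on the autosomes (46.7 to 54.5%), so the intervals overlapped. Closer to the start site the values separated. Within 200 bp of a TSS lay 30 of 142 thresholded X summits (21.1%, 15.2 to 28.6%), against 242 of 626 autosomal ones (38.7%, 34.9 to 42.5%), where the major arms ranged from 36.4 to 40.9%. Within 100 bp it was 14 on X (9.86%), against 21.6% on the autosomes. The share within 200 bp was 19.0% on X and 36.3% on the autosomes in the highest regions of replicate 1, and 23.4% on X and 36.3% on the autosomes in those of replicate 2. Both replicates thus placed X summits farther from start sites than autosomal ones at this range. At 2000 bp the shares had met, with 72.5% on X and 70.9% on the autosomes. The median distance was 642.5 bp on X and 476.0 bp on the autosomes. Only 16 of the 142 thresholded X regions were narrower than the usual 380 bp, and 126 had that width.

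**Figure D3:**
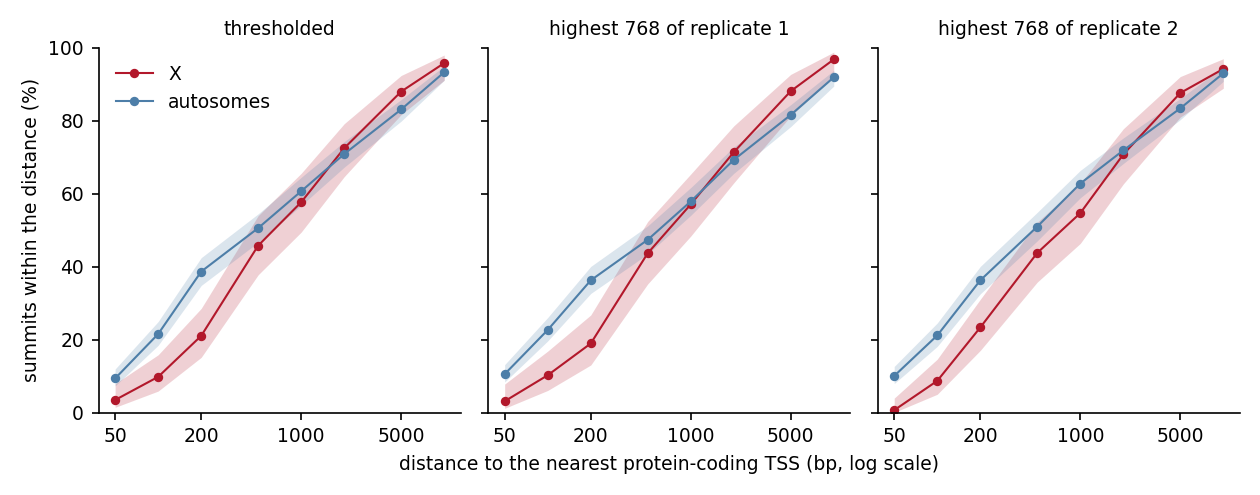
Cumulative share of summits (%, vertical axis) by distance to the nearest protein-coding TSS (bp, log scale, horizontal axis), for X and the autosomes, with 95% Wilson intervals shaded. In all 3 panels the X line lies below the autosomal line up to 500 bp, with 21.1% on X and 38.7% on the autosomes at 200 bp for thresholded peaks, and the lines meet near 2000 bp.

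Among regions that were not thresholded, the promoter share was higher on X: 418 of 2023 (20.7%, 19.0 to 22.5%) were within 500 bp of a TSS, against 16.0% on the autosomes (14.5 to 18.6% over the major arms). The replicates differed in this value. It was 15.8% on X and 12.8% on the autosomes in the whole list of replicate 1, and 20.8% on X and 19.5% on the autosomes in that of replicate 2.

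Fewer X genes than autosomal genes had any listed region near a start site. Of all protein-coding genes, 37.9% had a listed summit within 1000 bp of a TSS. On X it was 657 of 2196 genes (29.9%, 28.0 to 31.9%), against 39.5% on the autosomes (38.7 to 40.4% over the major arms). Replicate 1 gave 38.2% on X and 45.6% on the autosomes, and replicate 2 gave 44.5% on X and 54.8% on the autosomes. For thresholded peaks 4.74% of all genes had a summit that near. On X it was 92 genes (4.19%, 3.43 to 5.11%), against 4.85% on the autosomes (4.48 to 5.25%), so these intervals overlapped.

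The thresholded X peaks were assigned to 116 nearest genes, and 19 genes had more than 1. Counted by the gene body that holds the summit, 73 genes held 1 peak, 12 held 2 and 6 held 3. Genes with 3 were CG32772, CHES-1-like (a forkhead factor), Hr4, Ptpmeg2 (a tyrosine phosphatase), pdgy (an acyl-CoA synthetase) and pico. In CG32772 the peaks with scores of 257 and 107 overlap each other and matched the same region in each replicate, so they are not independent. The longest host gene, kirre, a cell adhesion gene of myoblast fusion, held 38 listed regions, 2 of them thresholded. Over all listed X regions 6.56% were thresholded.

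Hr4 is itself a nuclear receptor gene of the ecdysone cascade. Its thresholded peaks lay 5852, 9958 and 21990 bp from its nearest TSS. The farthest scored 90.2 in replicate 1 and 72.4 in replicate 2, and 169 in the pooled list. The nearest scored 81.5 in replicate 1 and 73.3 in replicate 2, and 146 in the pooled list. The middle one ranked 268 in replicate 1 and 1225 in replicate 2. All lay beyond 1000 bp, so Hr4 does not count among the 92 genes. Near its start site the highest listed region scored 46.7 and was not thresholded.

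Of 14 gene lists chosen by function, 5 held a member with a thresholded summit within 1000 bp of a TSS. In the list of neuronal genes 2 of 20 had one: dnc (185) and elav, a neuronal RNA-binding protein (113). The elav peak scored 64.1 in replicate 1 and 38.5 in replicate 2. In the carbohydrate and amino acid list it was 2 of 10, not counting Zw, whose thresholded peak lay at 1138 bp. These were Gapdh2, a glycolytic dehydrogenase (99.1), and Fum1, fumarase (106), whose peak is nearer to the start site of ND-ASHI, a subunit of mitochondrial complex I. Act5C was the only one of 9 genes of muscle, cytoskeleton and adhesion (103, at 662 bp). Atg8a was 1 of 4 genes of autophagy and cell death (78.4), and ph-p was 1 of 12 chromatin regulators (248). Over all 14 lists, with each gene counted once, 7 of 140 genes had a thresholded summit that near (5.00%, 2.44 to 9.96%), near the 4.19% of all X genes.

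The other 9 lists had no member with a thresholded summit that near. In the list of dosage compensation and sex determination it was 0 of 9, which allows up to 33.3%. The only listed region near a start site there was at snf, a splicing factor of sex determination (52.0). The gene roX1 had no listed region nearer than 5942 bp and no thresholded one nearer than 119828 bp. For roX2 these distances were 1442 and 44021 bp. Sxl, the switch gene of sex determination, had a thresholded peak (111) in an intron, 1362 bp from its nearest TSS and thus outside the window. In the list of ecdysone and nuclear receptor genes it was 0 of 11. Listed regions there were at usp, the partner of the ecdysone receptor (68.1), at Hr4 (46.7) and at phtm, an enzyme of ecdysteroid synthesis (34.9). The early gene br had none within 1000 bp.

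In the remaining lists no listed region near a start site was thresholded. In the Notch, Wnt and Hedgehog list the highest were sgg, the GSK-3 kinase (67.1), dx (38.6) and the receptor gene N (37.2). In the JAK-STAT and Ras-Raf list they were Raf (70.8) and the phosphatase gene csw (55.3). Among pigmentation genes they were rb (44.2), v (43.6) and car (40.8). Among patterning factors they were btd (48.4), oc (47.0) and B-H2 (44.0). Of genes of growth and cell cycle, raptor (37.9) and Rbf (33.3) had one, and Myc had a thresholded peak in its intron (87.7), 8822 bp from its TSS. Of 14 ribosomal protein genes on X, 6 had a listed region, the highest at RpS28b (58.4), RpS5a (50.3) and RpS6 (34.9). Of 9 yolk and eggshell genes of adult females, 2 had one, Yp1 (33.7) and Cp7Fb (32.0), near the lowest score in the list, 28.2. Among the 9 lists without a thresholded member, the share of genes with a listed region ran from 11.1% for dosage compensation to 57.1% for Notch, Wnt and Hedgehog. Over all 14 lists it was 60 of 140 genes (42.9%), against 29.9% of all X genes.

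The left part of X held more thresholded peaks than the right part. Up to the midpoint of the sequence lay 94 of the 142 (66.2%, 58.1 to 73.5%). For listed X regions it was 57.9% (55.8 to 59.9%), so these intervals overlapped. For X protein-coding genes it was 51.3% (49.2 to 53.4%). Counts did not rise steadily toward the left end, with 7 thresholded peaks in the first 1 Mb bin and 10 from 5 to 6 Mb. The highest regions gave 65.1% in replicate 1 and 67.2% in replicate 2. The densest 1 Mb bin ran from 2 to 3 Mb and held 15 thresholded peaks, with 13 of the highest regions in replicate 1 and 15 in replicate 2. This bin had 126 genes and 128 listed regions, and 131 regions were listed in the next bin, which has 55 genes and 6 thresholded peaks. The bin from 15 to 16 Mb had the most genes, 140, with 90 listed regions and 3 thresholded peaks. From 22 Mb to the right end, where the sequence approaches the centromere, 23 regions were listed and none was thresholded. With so few regions, a count of 0 does not separate this end from the 6.56% thresholded over all of X. The largest gap between thresholded summits was 1020218 bp, between a peak in eas and a peak in Fim.

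**Figure D4:**
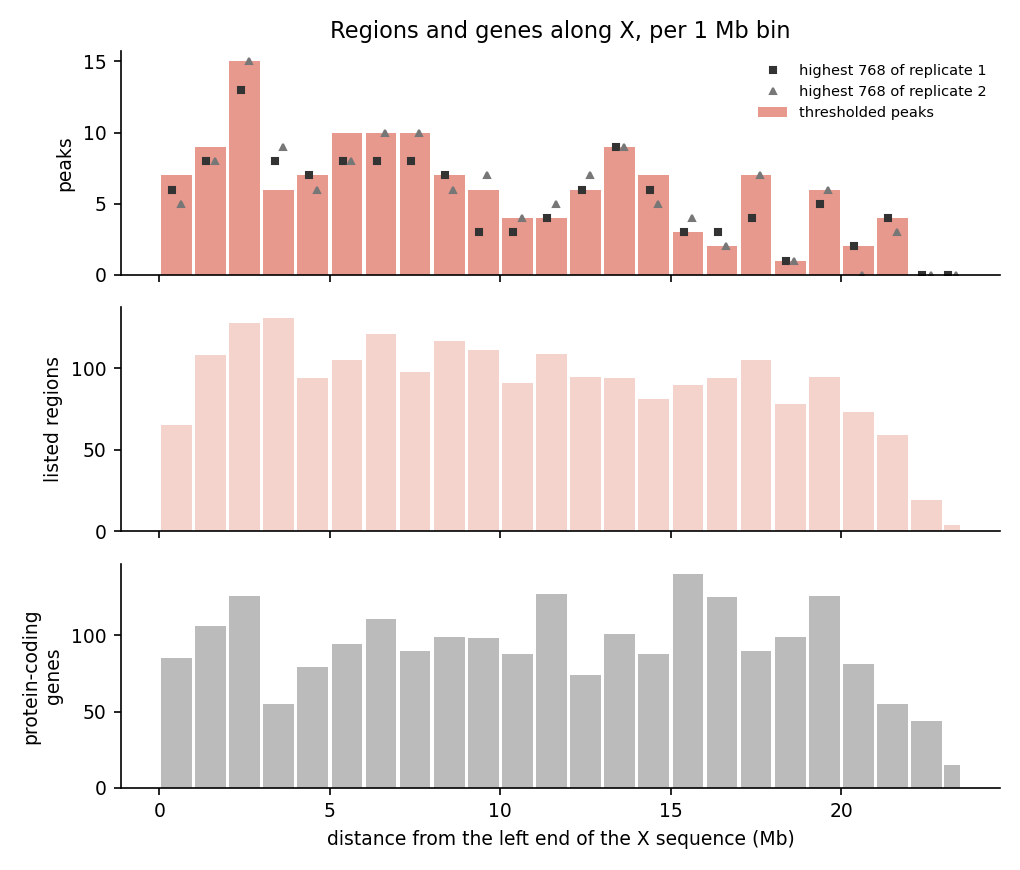
Counts per 1 Mb bin by distance from the left end of the X sequence (Mb, horizontal axis): thresholded peaks, with the highest 768 regions of each replicate as marks (top), all listed regions (middle) and protein-coding genes (bottom). The bin from 2 to 3 Mb holds 15 thresholded peaks. None lies beyond 22 Mb, where only 23 regions are listed. The last bin is shorter than 1 Mb.

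The densest 200 kb stretch of X held 9 thresholded summits between positions 1940224 and 2137935. From left to right they were at CG3587 (82.9), at 3 sites in Hr4 (146, 91.8 and 169), at moody (170), at 2 sites in Unc-76, an adaptor of axonal transport (124 and 85.5), and at 2 sites at ph-p (248 and 101). The rest of the densest 1 Mb bin held peaks at CG2865 (84.0), 2 in Raf (209 and 125), CG2841 (79.5), trol, the perlecan gene (110), egh, an enzyme of glycolipid synthesis (141 and 79.9), Smyd3 (83.6), Ugalt (443) and CG32795 (90.1). Of all thresholded X peaks, 12 neighbouring pairs had summits within 2 kb of each other.

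The replicates found nearly all thresholded X peaks. A region of replicate 1 overlapped 141 of the 142, and a region of replicate 2 overlapped all 142. Among the 768 highest of both replicates were 86 (60.6%), against 59.9% for autosomal peaks. Across the 141 peaks found in both, Spearman's rho between the replicate scores was 0.518, and across the 615 autosomal peaks it was 0.502. These are descriptions across regions, which share libraries and were chosen for agreement between the replicates. The peak in raskol had no region in replicate 1 and ranked 704 in replicate 2. The peak in Ubr3 ranked 483 in replicate 1 and 17140 in replicate 2, and that in Ptp10D ranked 4538 in replicate 1 and 254 in replicate 2, so pooled scores near the threshold can rest mainly on 1 replicate. Of the 2023 X regions that were not thresholded, 902 (44.6%) were found in both replicates, against 41.5% on the autosomes.

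**Figure D5:**
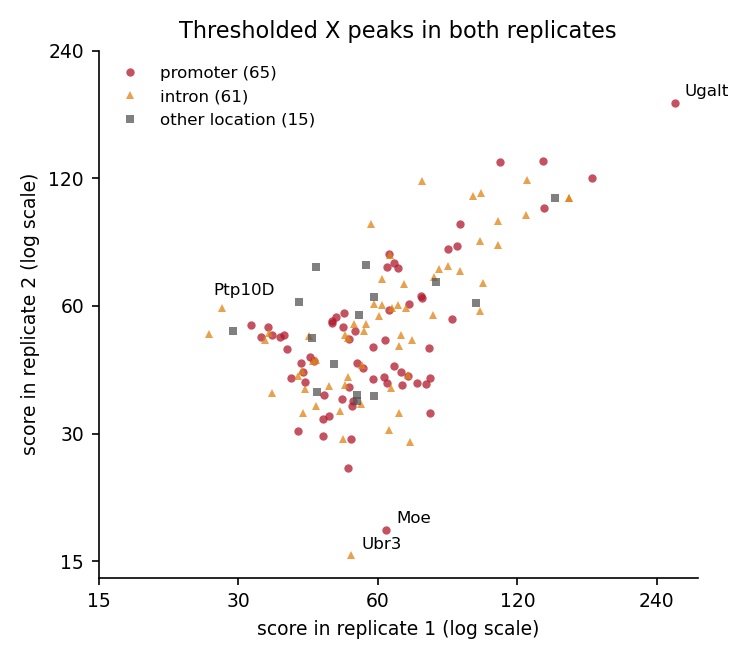
Scores of thresholded X peaks in replicate 1 (horizontal axis) and replicate 2 (vertical axis), both on log scales, coloured by location; 1 peak, in raskol, is missing because replicate 1 lists no region there. Ugalt is highest in both replicates, and Moe and Ubr3 have low scores in replicate 2.

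The element of Nr4a receptors was not found at thresholded X peaks. The NBRE, AAAGGTCA, was looked for on either strand, up to 100 bp from each summit, and was in 0 of 142 windows, which allows a share of up to 2.11%. It was in 0.692% of the other X regions (14 of 2023) and in 0.319% of thresholded autosomal peaks (2 of 626). The shorter nuclear receptor core AGGTCA, which the NBRE contains, was in 3 thresholded X windows (2.11%, 0.721 to 6.03%), among them that of Gapdh2, and in 4.99% of the other X regions (4.13 to 6.03%). At all X protein-coding start sites the core was in 3.08% of windows of the same length.

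Neither of a pair of promoter elements that are common at X start sites was found within 100 bp. The DRE, TATCGATA, was in 0 of 142 thresholded X windows and in 9.44% of windows at all X protein-coding start sites. M1BP motif 1, GGTCACAC, which can share letters with the receptor core and with CA repeats, was in 0 and in 5.83%. These windows are not matched in place. Those at start sites are centred on a TSS, whereas 14 of the 142 summits lay within 100 bp of one. At the 65 thresholded X promoter peaks each element was in 0 windows (interval 0 to 5.58%). The other X regions held the DRE in 1.14% and the M1BP motif in 1.19% of windows, shares within the interval of a count of 0 at thresholded X peaks (0 to 2.63%). Within 250 bp each was in 3.52% of thresholded X windows. On the autosomes 2.24% of thresholded peaks held the DRE and 1.60% the M1BP motif. The E-box CACGTG was in 4 thresholded X windows (2.82%) and in 3.16% of the other X regions. TATAAAAG was in 1 thresholded X window (0.704%) and in 2.78% of windows at X start sites. The AP-1 element TGANTCA was in 4 (2.82%, 1.10 to 7.02%), against 5.75% of thresholded autosomal peaks (4.18 to 7.86%), and the one in Zw is printed above.

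Simple repeats had higher shares in windows at thresholded X peaks than at thresholded autosomal peaks or the other X regions, but those intervals overlapped. GAGAGAGA was in 9 thresholded X windows (6.34%, 3.37 to 11.6%), against 2.40% of thresholded autosomal peaks (1.46 to 3.92%), 2.92% of the other X regions (2.27 to 3.74%) and 3.17% of windows placed 1 kb to either side of the X peaks. The highest-scoring of them was the window at CG3726 printed above, where the run lies outside the listed bounds of the peak. CACACACA was in 12 (8.45%, 4.90 to 14.2%), against 3.83% of thresholded autosomal peaks (2.59 to 5.64%) and 6.43% of the other X regions (5.44 to 7.58%). Autosomal regions that were not thresholded held CACACACA in 4.32% (4.02 to 4.64%) and GAGAGAGA in 1.86% (1.66 to 2.07%). Both were below the other X regions, with intervals apart, so a higher share on X was not particular to thresholded peaks. The GC content of the windows was lower at thresholded peaks, 39.7% on X and 38.1% on the autosomes, than at the other regions, 45.9% on X and 46.9% on the autosomes.

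Another string differed more between thresholded and other X regions. Strings of 7 letters were ranked on the autosomes alone, by the share of thresholded over other listed windows that hold them, among strings found in at least 5% of the thresholded windows. Of 659 such strings the highest 6 were kept. ACAGTGG ranked 5 by this ratio (3.54) but was the commonest of the 6 at thresholded autosomal peaks. This search was chosen after the data had been seen, and the strings overlap one another. On X, where none of them was chosen, ACAGTGG was in 39 of 142 thresholded windows (27.5%, 20.8 to 35.3%), against 130 of 2023 other X windows (6.43%, 5.44 to 7.58%). It was in 2.81% of windows at X start sites and in 2.46% of windows 1 kb to either side of the X peaks. On the autosomes it was in 12.3% of thresholded windows (9.95 to 15.1%) and in 3.48% of the others. The highest X regions of each replicate gave 29.4% in replicate 1 and 23.4% in replicate 2.

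The string was in the windows of peaks of several kinds. Of the 39 peaks with ACAGTGG in the window, 22 were intronic and 15 at promoters. That is 35.5% of the intronic (24.7 to 47.9%) and 23.1% of the promoter peaks on X (14.5 to 34.6%). Among the 20 highest X peaks 7 had it in the window: MFS10, Ptp4E, NFAT, Raf, CG1737, pico and the highest peak in Hr4. At Raf the match lay 90 bp from the summit, outside the listed bounds of the peak. The nearest match lay a median of 57.00 bp from the summit, and 6 windows had more than 1 match. Below 35% GC it was in 6 of 31 thresholded X windows (19.4%) and 6.34% of the other X regions, and from 45% GC in 6 of 25 thresholded X windows (24.0%) and 5.82% of the others. In windows with 35 to 40% GC it was in 31.1% of thresholded X peaks and 8.10% of the other X regions, and with 40 to 45% GC in 31.7% of thresholded X peaks and 6.57% of the others. Of the other strings, CACTGTA was in 14.1% of thresholded X windows and 3.36% of the other X windows, CAGTGTA in 11.3% and 2.87%, and AGTGTAG in 10.6% and 1.58%. AGTGTAC, first on the autosomes, was in 2.82% of thresholded X windows (1.10 to 7.02%) and 1.43% of the others (1.00 to 2.05%), and ACTGTAA in 4.93% and 1.73%. A match is a run of letters and not evidence that a protein binds there.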

How the data were processed

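Regions came from the peak lists of 2 ChIP-seq libraries, which the labels call biological replicates of 1 group. The authors deposited lists of peaks and background for each replicate and for both pooled, and 1 list thresholded by the irreproducible discovery rate (IDR), all in narrowPeak layout on dm6 and dm3, per the labels. The deposited score is the narrowPeak signal value, and the deposited −log10 value is that of q by the same convention. The deposited summit offset was also used. For the aligner, the peak caller and the IDR cut-off the sources used here give no name or value. Sequencing depth is unknown because read counts were not used, and 0 columns of samples were left unused.

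Scripts in Python 3.11.15 with pandas 2.3.3, numpy 2.4.6 and scipy 1.17.1 read the dm6 lists on the chromosome arms. Gene models were from Ensembl release 115 and sequence from RefSeq release 6. Old gene symbols were matched through current names. A shared base pair counted as overlap of regions. Shares carry 95% Wilson intervals, and the limit for a count of 0 is 3 counts of the total. No test was run and no p-value is given, because there was 1 group. Functions were tested on simulated regions. The members, gene lists and motifs were chosen with earlier results of these data known. Genes were named by rule: those nearest the 20 highest X regions, up to 3 of the highest members of each list, those in the densest 200 kb and 1 Mb, those at the threshold, and roX1, roX2 and Hr4. Others were chosen after their values were seen. Alternatives were other windows, region middles, dm3, stricter lists, single replicates and rescaled X scores.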

Additional observations from a re-analysis of the deposited data

How the results depend on the processing

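No paired analysis was possible because there was 1 group. Under 101 alternative values for 21 results, 47 stayed within a margin, 53 moved further and 1 reversed. The margin was the standard deviation of the single-replicate values. For the count in the densest bin it was a factor of 1.5, and for replicate overlap the Wilson interval. Where the single replicates were nearly equal the margin was close to nothing, so almost any change counted as moved. The 1 reversal came from multiplying X scores by 4/3, as if the score followed copy number. It turned the ratio of median scores, X over autosomes, to 1.32 (0.990 as reported), which the multiplication fixes by construction. The same rescaling gave X 28.6% of the highest 768 regions. Without rescaling, the ratio of median scores was 0.996 in thresholded peaks and 0.959 to 0.966 in single replicates. Single replicates gave X 11.6 to 13.1% of listed regions and 16.4 to 17.8% of the highest. The share of X regions thresholded was 6.84% on dm3, 3.28% with the upper part of the thresholded list by score and 3.61 to 3.61% in single replicates, and its ratio to the autosomal share, 1.79 as reported, was 1.44 to 1.49 there. These ratios, added after seeing the data, stayed above 1.

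The promoter share of X regions was 12.0% within 200 bp, 31.7% within 1000 bp, 45.8% in thresholded peaks, and 15.8 to 20.8% in single replicates. For thresholded X peaks it was 21.1%, 57.7%, 40.8% in the upper part of the list, and 43.7 to 43.8% in single replicates. The intron share was 49.3% in the upper part and 44.4 to 45.3% in single replicates. The share of X genes with a thresholded peak was 3.23% within 500 bp, 5.60% within 2000 bp, 3.28% with nearest genes only, 2.14% with the upper part, and 3.96 to 4.01% in single replicates. The densest bin held 8 peaks of the upper part and 13 to 15 in single replicates. Peaks of the upper part were among the highest of both replicates in 94.4%. GAGAGAGA was in 0.704% of windows within 50 bp, 16.9% within 250 bp and 4.76 to 5.84% in single replicates, and ACAGTGG in 12.0%, 35.9% and 23.4 to 29.4%. The cause of these moves was not tested, and a narrower window or a shorter list gives lower shares by its construction. No depth is known, so the number of listed regions cannot be set against it.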
